A study of Mus musculus and Mus musculus
Oryx dammah with 30 samples.

Results

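Two-cell mouse embryos that received C2C12 cells by nuclear transfer (NT) were compared after culture without or with α-amanitin, a toxin that blocks RNA polymerase II. The comparison asks which transcripts are more abundant when transcription can proceed after transfer, and which are less abundant. The table of the two-cell experiment names its libraries NT1 to NT3 (without α-amanitin) and Am1 to Am3 (with α-amanitin), so 6 libraries of the 30 samples in the series were analysed. The names do not say whether these 6 libraries came from early or late two-cell transfer, so each group may hold either stage or both, and 6 further columns of the table were not used. Of 55364 genes in the table, 14285 had a level of at least 1 FPKM (fragments per kilobase of gene, scaled to the counted reads of the library) in 3 or more of the 6 libraries, and all of them were tested.

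The recipients were embryos fertilised in vitro from C57BL/6 oocytes and DBA/2 sperm. Each was arrested in 0.1 μg/ml demecolcine, a microtubule poison, which both groups received. In the two-cell experiment NT was done from 21 h (early) or 30 h (late) after insemination. Each embryo was fused with 2 C2C12 cells, a myoblast line from C3H mice, and cultured for 24 h with no toxin or with 2.5 μg/ml α-amanitin. Each library was made from a pool of 5 embryos, so a library is a mixture of recipient blastomeres and donor cells of 3 strains, and the gene values do not separate their genomes. In such pools, fewer cells of a type and less RNA per cell cannot be told apart. The study describes its replicates as independent, while the labels do not tie a pool to an experiment or day, and the p-values measure the spread between these libraries.

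The mouse embryo starts on transcripts stored in the oocyte. The major wave of zygotic genome activation takes place at the two-cell stage, when a short burst of genes that exist in many near-identical copies is transcribed, among them the Zscan4, Tdpoz, Usp17l and Eif1a-like genes. Genes for ribosome assembly, RNA processing and translation follow, while many oocyte transcripts are degraded. Homeobox proteins of the Obox family and the nuclear receptor Nr5a2 are known regulators of this activation, and both bind short DNA elements that lie near many of its target genes.

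Promoters of 4 multicopy genes that rose without α-amanitin are shown first, because each held both an Nr5a2-type element (TCAAGGNCA) and an Obox or Otx-type element (TAATCCC, or GGGATTA on the other strand) within 250 bases before the start. The sequences are from RefSeq on GRCm38.p6. Pramel4 (chr4:144058995-144059124, plus strand), Pramel5 (chr4:144280467-144280596, minus strand) and Gm13102 (chr4:144099750-144099879, plus strand) encode or resemble PRAME-like leucine-rich repeat proteins. Gm4567 (chr7:22719711-22719840, minus strand) is identical over this stretch to Gm10668 (chr7:20730625-20730754, minus strand). Capitals mark the matches. In Gm4567 the second element lies 148 bases before the start, outside the stretch shown.
Pramel4: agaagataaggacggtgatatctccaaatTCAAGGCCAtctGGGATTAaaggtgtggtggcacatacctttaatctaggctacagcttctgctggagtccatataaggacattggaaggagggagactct
Pramel5: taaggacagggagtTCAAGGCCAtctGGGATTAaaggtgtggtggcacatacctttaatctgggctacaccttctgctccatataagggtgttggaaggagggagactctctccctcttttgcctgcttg
Gm13102: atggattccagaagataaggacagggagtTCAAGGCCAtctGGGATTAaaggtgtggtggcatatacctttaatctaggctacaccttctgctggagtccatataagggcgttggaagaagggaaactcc
Gm4567: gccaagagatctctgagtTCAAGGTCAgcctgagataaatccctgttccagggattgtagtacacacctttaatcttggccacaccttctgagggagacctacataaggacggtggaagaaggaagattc

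The Pramel promoters have the 2 elements in the same order and spacing. In Pramel4 and Gm13102 the first lay 101 bases and the second 89 bases before the start, and in Pramel5 they lay 116 and 104 bases before it. In Gm4567 the Nr5a2-type element lay 112 bases before the start. How often these letters occur in the promoters of all genes tested is given after the expression values.

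At 2 microRNA genes of the Mir290 to Mir295 cluster on chromosome 7 the reads, few in number, lay almost wholly in the NT libraries, and the mature 3′ arms from RefSeq are shown because they share a seed (bases 2 to 8, in capitals). Members of this cluster are the main microRNAs of early embryos and embryonic stem cells. MiR-294-3p and miR-295-3p carry the seed of miR-291a-3p, and miR-290a-3p, with another seed, is given for comparison.
mmu-miR-294-3p: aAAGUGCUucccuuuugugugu
mmu-miR-295-3p: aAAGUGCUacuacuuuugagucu
mmu-miR-291a-3p: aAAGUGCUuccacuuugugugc
mmu-miR-290a-3p: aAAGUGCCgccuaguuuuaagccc

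The 2 groups of libraries separated over the whole profile. Approximate numbers of counted reads were 7584116 to 10503779 without and 4712268 to 9327403 with α-amanitin, and 26210 to 28270 against 23573 to 24309 genes had a signal. On log2(FPKM + 1), Pearson's r across genes was 0.908 to 0.943 among the NT libraries, 0.931 to 0.935 among the Am libraries and 0.828 to 0.877 between the groups. Principal component 1, with 55.0% of the variance, separated the groups, and component 2 (15.1%) set NT3 apart from NT1 and NT2. ERCC spike-ins, a fixed amount of synthetic RNA added to each lysate, took 3.15%, 4.22% and 6.26% of the counted reads in NT1 to NT3 and 7.38%, 6.54% and 8.93% in Am1 to Am3. The ratio of gene reads to spike-in reads was 22.8 ± 7.91 without and 12.3 ± 2.06 with α-amanitin (mean ± SD, n = 3). The groups did not overlap, and their geometric means differed 1.79-fold. The two-sided exact permutation test gave p = 0.1, the smallest value that 3 against 3 libraries allow. Pseudogene copies of mitochondrial DNA on chromosome 1, 7 in all, took 8.26% to 16.0% of counted reads without and 19.1% to 22.7% with α-amanitin. Markers of oocytes and cleavage-stage embryos summed to 8495 to 12365 FPKM in the NT and 6959 to 8069 FPKM in the Am libraries, nearly all of it Dppa3, whereas of the 9 tested 0 were higher and 4 lower, 7 had every NT library below every Am library (4.18% of all genes were lower and 11.2% lay below), and the median log2 change was -1.0045. With spike-in scaling 1 was higher and 1 lower, with a median of -0.35. Cumulus cell markers summed to 19.2, 16.98 and 10.2 FPKM in NT1 to NT3 and 21.2, 30.4 and 28.9 FPKM in Am1 to Am3, so the groups did not overlap. Of the 16 cumulus markers, 3 were tested and Ptgs2 was lower, Inha and Ptx3 were at 0 in every library, and their part in the results was not tested. Sperm markers summed to 0.198 to 4.67 FPKM without and 3.34 to 6.64 FPKM with the toxin.

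**Figure D1:**
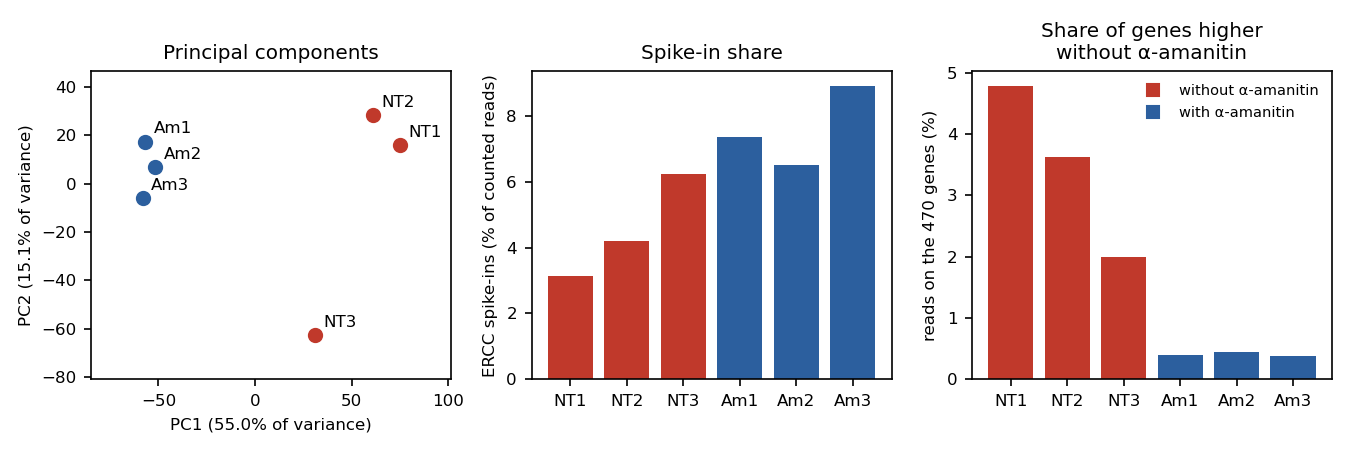
Principal components of the 6 two-cell libraries (axes: share of variance), the spike-in share of each library (% of counted reads), and the share of reads on the 470 genes called higher without α-amanitin (%), coloured by group. NT3 lies apart from NT1 and NT2, with a spike-in share of 6.26% and 2.00% of its reads on those genes, against 4.79% and 3.63% in NT1 and NT2 and 0.373% to 0.440% in the Am libraries.

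Without α-amanitin, 470 genes were higher and 70 lower by at least 4-fold at an adjusted p under 0.05 (limma on log2(FPKM + 1), Benjamini-Hochberg adjustment over the 14285 genes), which is 3.29% and 0.49% of the genes tested. These are called differentially expressed genes (DEGs) here. With no limit on the fold, 1814 genes (12.7%) were higher and 597 (4.18%) lower, and 4809 genes (33.7%) had an unadjusted p under 0.05. The adjusted counts of 1814 and 597 fell to between 540 and 818 and between 97 and 208 without any library but NT3, and rose to 2074 and 771 without NT3. In 3826 genes (26.8%) every NT library lay above every Am library, and in 1599 (11.2%) every NT library lay below. The median log2 change of all genes tested was 0.26, so a group of genes is read against that value. Scaling moved this median, to 0.02 with median-of-ratios scaling and to 0.91 with spike-in scaling, and the share of higher genes among all calls moved from 75.2% to 52.2% and 97.6%. Of the 470 and 70 DEGs, those that an alternative could test kept their sign in it, but only 353 of the 470 could be tested without an NT library, since the others passed the filter only through the NT group, and 225 reached 1 FPKM in all 6 libraries. Leaving out 1 library changed the count of higher DEGs to 198 (NT1), 259 (NT2), 555 (NT3), 325 (Am1), 387 (Am2) or 352 (Am3), and that of lower DEGs to 45 without Am1.

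The higher DEGs were shorter than the genes tested as a whole and held a smaller share of protein-coding genes. Their median length was 1394 bases against 2343 for all genes tested, and 165 of them (35.1%) were annotated as 1 exon part, against 25.5%. Of the 470, 266 were protein coding (56.6%, against 64.4%) and 76 were pseudogenes (16.2%, against 21.4%). By gene type, the share of higher DEGs is given over all genes tested and over those with 1 FPKM in all 6 libraries. Small nuclear RNA genes were higher DEGs in 10 of 40 cases, but in 0 of the 7 with 1 FPKM in all 6 libraries, and small nucleolar RNA (snoRNA) genes in 29 of 177 (16.4%) and 2 of 36 (5.56%). Protein-coding genes were so in 266 of 9201 (2.89%) and 138 of 6256 (2.21%). Unprocessed pseudogenes, which are gene copies with introns, were higher DEGs in 20 of 201 (9.95%) and 16 of 123 (13.0%), and long intergenic noncoding RNAs in 42 of 573 (7.33%) and 16 of 231 (6.93%). The median FPKM of the 470 DEGs was 17.9 without and 1.91 with α-amanitin, and 225 of them were also called when all 6 libraries had to reach 1 FPKM. In 97 of them no Am library held more than 3 reads, so their fitted fold changes depend on the pseudocount of 1.

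**Figure D2:**
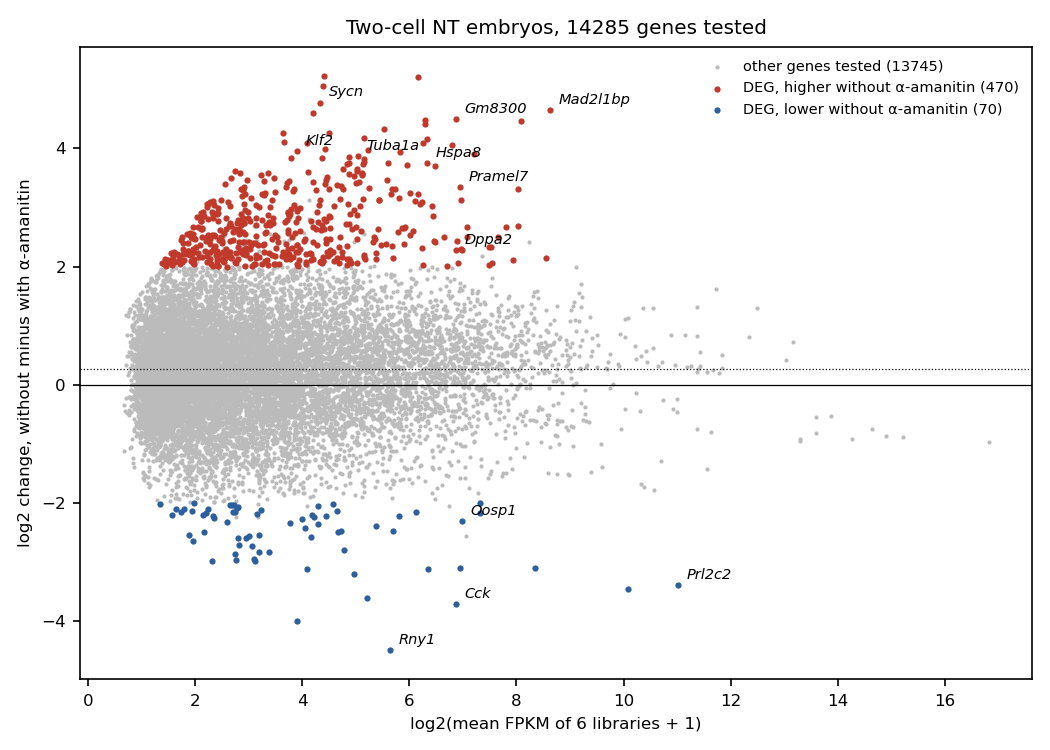
Log2 change of each of the 14285 genes tested (without minus with α-amanitin, vertical axis) against its mean level (log2(mean FPKM of 6 libraries + 1), horizontal axis), with the 470 higher and 70 lower DEGs coloured and the median of 0.26 dotted. Mad2l1bp and Gm8300 stand out among well-expressed genes that rose, and Prl2c2 among those that fell.

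Mad2l1bp, which encodes p31comet, a protein that silences the spindle checkpoint, was among the most abundant genes that rose (chr17:46147387-46153553, mm10). It measured 959, 1062 and 273 FPKM in NT1 to NT3 and 23.7, 22.2 and 30.0 FPKM in Am1 to Am3, a log2 change of 4.65 (SE 0.48, limma adjusted p = 0.00368). NT3 was the lowest NT library and still lay above every Am library. Sycn, which encodes the secretory granule protein syncollin, measured 68.4, 21.2 and 24.4 FPKM without the toxin, and no Am library held more than 3 reads. It was at least 43.3-fold higher without the toxin when those libraries were set to 3 reads each. Inka1, an inhibitor of the kinase Pak4, measured 42.1, 44.6 and 16.9 FPKM against 0.734, 0 and 0.439 FPKM (log2 change 4.59, SE 0.43, adjusted p = 0.00301). Fbxo15, an F-box gene used as a marker of undifferentiated embryonic cells, measured 562, 699 and 176 FPKM against 41.2, 41.2 and 39.3 FPKM (log2 change 3.31, SE 0.47, adjusted p = 0.00659). In all 4 genes the groups did not overlap. The calls of Mad2l1bp and Fbxo15 held without any single library, whereas Sycn and Inka1 passed the filter only through the NT libraries, so their calls were checked without each Am library alone and not without an NT library.

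The two-cell burst genes had the largest median change of the lists. Of 40 listed genes, 38 were tested, 19 were higher DEGs (background 3.29%), 25 were higher and 4 lower at the adjusted p, and their median log2 change was 2.22 against 0.26 for all genes. Their summed level was 2793, 2084 and 912 FPKM in NT1 to NT3 and 251, 296 and 252 FPKM in Am1 to Am3. There were 20 DEGs without NT3, but 12 without NT1, 9 without NT2 and 12 without Am1, and the 25 higher genes became 14, 10, 14, 16 and 14 without NT1, NT2, Am1, Am2 and Am3. NT3 was the lowest NT library in 26 of the 38 genes and not in the other 12.

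The Eif1a-like genes on chromosome 12, copies of the gene for the translation initiation factor that scans for the start codon, were higher in each NT library. Gm8300 (chr12:87514316-87518266) measured 330, 214 and 123 FPKM without and 6.99, 10.3 and 7.57 FPKM with α-amanitin (log2 change 4.49, SE 0.36, adjusted p = 0.00284). Gm2016 measured 240, 127 and 78.8 FPKM against 4.24, 6.57 and 4.64 FPKM, and Gm5662 245, 128 and 73.9 FPKM against 5.98, 5.37 and 4.60 FPKM. Every NT library of these copies lay above every Am library by a wide gap, and the calls held with each library left out. Eif1a itself, the ancestral gene, rose as well (141, 75.2 and 66.1 FPKM against 11.5, 13.4 and 17.7 FPKM, log2 change 2.59, SE 0.32, adjusted p = 0.00572). The deposited values share reads between genes in fractions, so how reads were divided among near-identical copies is uncertain here and in the families that follow.

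The Tdpoz genes encode proteins with TRAF and POZ domains and lie on chromosome 3. All 9 were tested, 6 were higher DEGs and 8 passed the adjusted p upwards (3.29% and 12.7% of all genes), with log2 changes of 1.24 to 4.15 over the 9. Their summed level was 877, 655 and 103 FPKM in NT1 to NT3 and 32.3, 43.0 and 23.6 FPKM in Am1 to Am3. Tdpoz5 measured 259, 183 and 17.6 FPKM against 3.19, 8.68 and 2.89 FPKM (log2 change 4.15, SE 0.92, adjusted p = 0.0240), and Tdpoz4 measured 126, 120 and 25.6 FPKM against 4.96, 3.42 and 5.24 FPKM. NT3 held a small part of the signal of the other NT libraries but did not overlap with the Am libraries in either gene. The 6 DEGs became 0 with no filter on low FPKM, 1 without NT1, NT2, Am1 or Am3, 4 without Am2 and 8 without NT3. Tdpoz4 was called in every fit without 1 library, while Tdpoz5 was lost without NT1, NT2, Am1 or Am3, with an adjusted p of up to 0.0780.

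The deubiquitinase genes of the Usp17l family were high without α-amanitin, and other burst genes differed in how the NT libraries were ordered. All 3 Usp17l genes tested of 5 in the table were higher DEGs (3.29% of all genes), but at least 1 of them passed the filter only through the NT libraries. Usp17lb measured 130, 60.6 and 11.6 FPKM against 0.136, 3.89 and 2.10 FPKM (log2 change 4.18, SE 0.86, adjusted p = 0.0195). The zinc finger gene Zfp352 measured 88.9, 56.9 and 24.2 FPKM against 10.5, 2.85 and 6.50 FPKM (log2 change 2.87, SE 0.54, adjusted p = 0.0147). In both, NT1 was the highest and NT3 the lowest NT library, and the NT libraries stayed above the Am libraries. Spz1, which encodes a bHLH-zip transcription factor, was even among NT libraries, with 47.7, 65.3 and 48.6 FPKM against 3.87, 11.8 and 4.51 FPKM (log2 change 2.96, SE 0.39, adjusted p = 0.0058). BC080695 measured 7.004, 5.08 and 8.40 FPKM and at most 0.43 reads in an Am library, at least 29.9-fold higher with those set to 3 reads each, but passed the filter only through the NT libraries and could not be tested without one of them. Tcstv3 measured 16.4, 61.3 and 16.0 FPKM against 1.84, 2.38 and 6.55 FPKM, with an adjusted p of 0.0231. The calls of Usp17lb (without NT1, NT2, Am1 or Am3, adjusted p up to 0.0648), Zfp352 (NT2 or Am3, up to 0.0511) and Tcstv3 (NT2, Am1 or Am2, up to 0.0772) depended on single libraries. The Usp17l count of 3 was 1 without NT1 or NT2.
The Zscan4 genes, which encode zinc finger proteins of the same burst, went the other way. All 6 were tested, every NT library lay below every Am library in each of the 6, and 4 were lower at the adjusted p (11.2% and 4.18% of all genes), with log2 changes of -1.88 to -0.89. Their summed level was 10.01, 10.1 and 15.3 FPKM without and 40.1, 48.3 and 43.8 FPKM with α-amanitin. Zscan4d measured 2.35, 3.15 and 3.09 FPKM against 10.4, 14.0 and 15.6 FPKM (log2 change -1.88, SE 0.28, adjusted p = 0.00733), and Zscan4a measured 2.67, 3.61 and 6.87 FPKM against 16.1, 21.6 and 13.4 FPKM. The Am libraries thus held several times the signal of the NT libraries. The family median of -1.14 was -1.36 with median-of-ratios scaling and -0.53 with spike-in scaling, where 1 member passed. Zscan4d was called with each library left out, and the family count fell from 4 to 1 without NT1, NT2, Am1 or Am2 and to 2 without Am3.

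**Figure D3:**
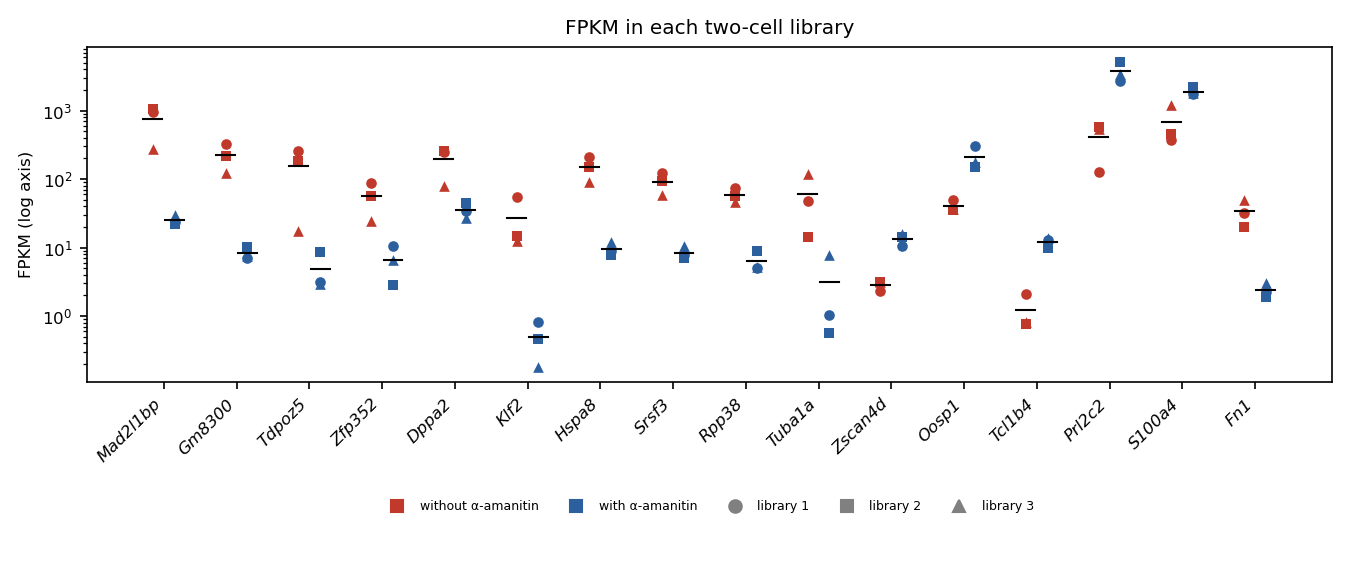
FPKM (log axis) of 16 named genes in each two-cell library, with circles, squares and triangles for libraries 1 to 3 of each group and black lines for group means. Mad2l1bp, Gm8300 and Hspa8 lie far higher without α-amanitin, Zscan4d, Oosp1, Tcl1b4 and Prl2c2 lie lower, and the triangle of NT3 is the lowest NT point for Tdpoz5 (17.6) and the highest for Fn1 (49.5).

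Of the 25 listed activators of the embryonic genome, 24 were tested, 1 was a higher DEG, 4 were higher and 1 lower at the adjusted p (background 12.7% and 4.18%), and the median log2 change was 0.38. Dppa2, whose protein works with Dppa4 upstream of the burst, measured 249, 259 and 79.8 FPKM against 34.5, 45.5 and 26.8 FPKM (log2 change 2.28, SE 0.45, adjusted p = 0.0174). Dppa4 measured 327, 368 and 250 FPKM against 226, 244 and 258 FPKM, and its groups overlapped (log2 change 0.36, adjusted p = 0.239). Of the other called members, Obox8 rose (1162, 866 and 557 FPKM against 290, 323 and 236 FPKM, log2 change 1.55, SE 0.28, adjusted p = 0.0130). Nfyb, a subunit of the CCAAT-binding factor, measured 69.4, 84.8 and 27.0 FPKM against 18.3, 19.5 and 14.3 FPKM, and Tfap2c 9.17, 6.78 and 4.05 FPKM against 1.4997, 1.73 and 1.29 FPKM. Obox2 fell (9.76, 15.3 and 11.1 FPKM against 23.3, 19.8 and 32.2 FPKM, log2 change -0.995, adjusted p = 0.0472). Over the 7 Obox genes the median was -0.43, which became 0.29 with spike-in scaling. The homeobox gene Dux, listed as Duxf3, measured 0.348, 0.310 and 0.419 FPKM in the NT libraries and 0 in the Am libraries, and was too low to be tested. Zfp281, which encodes a transcription factor, had a log2 change of 0.41 and did not pass.

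The calls among the activators rested on few libraries. The count of 4 higher members was 11 with spike-in scaling (0 were lower), 0 without Am1 or Am3, 1 without NT1 or NT2, 2 without Am2 and 8 without NT3. Dppa2 was lost without NT1, NT2, Am1 or Am3 (adjusted p up to 0.0627) and Obox8 without Am1 or Am3 (up to 0.0543). Nfyb (up to 0.110) and Tfap2c (up to 0.0734) were called without NT3 but lost without any other single library, and Obox2 was called in none of these fits (up to 0.147).

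Among pluripotency and lineage factors, 12 of 29 passed the filter, 3 were higher DEGs and 5 passed the adjusted p upwards (3.29% and 12.7% of all genes). The median of the 12 was 0.94 on the log2 scale. Klf2, a Krüppel-like factor of the naive pluripotent state, measured 54.8, 14.7 and 12.6 FPKM against 0.833, 0.464 and 0.183 FPKM (log2 change 3.96, SE 0.54, adjusted p = 0.00625). Klf5, which acts in both early lineages, measured 14.2, 11.3 and 8.18 FPKM against 1.88, 2.14 and 1.85 FPKM (log2 change 2.02, SE 0.29, adjusted p = 0.00707). The groups did not overlap in either gene. The call of Klf5 held without any single library, whereas Klf2 passed the filter only through the NT libraries and could not be tested without NT1, its highest, or any other NT library. Sox15, a relative of Sox2, measured 161, 154 and 29.6 FPKM against 28.4, 15.9 and 5.89 FPKM, and its call (adjusted p = 0.0467) held only without NT3 (up to 0.137 otherwise). Dppa5a, an RNA-binding protein of pluripotent cells, was abundant in both groups, with 1523, 2065 and 2126 FPKM against 1721, 1555 and 1131 FPKM and an adjusted p of 0.266. Pou5f1, the gene of Oct4, lay between 0 and 1.49 FPKM in all 6 libraries and was not tested, nor was Sox21 (1.77, 0.326 and 1.42 FPKM against 0 in each Am library). The list's count of 5 was 3 with median-of-ratios and 8 with spike-in scaling, and fell to 1 without NT1 or NT2 and to 2 without any one Am library.

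The microRNA genes whose mature arms are printed above were low, and their libraries did not overlap. Mir295 measured 38.5, 22.1 and 8.12 FPKM against 0, 0 and 0.612 FPKM (log2 change 4.11, SE 0.53, adjusted p = 0.0058), from 4.25 to 20.8 reads per NT library. Mir294 measured 10.5, 4.73 and 2.09 FPKM and had no read in the Am libraries (adjusted p = 0.0133), but rested on 1.33 to 6.92 reads per NT library. Of 9 genes of the cluster in the table, these were the 2 that could be tested, and neither could be tested without any one NT library. The libraries were primed on poly(A), so the reads may be of precursor or host RNA and are not of the mature microRNAs.

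Of 9 tested PRAME-like genes named Pramel or Pramef, 5 rose and 4 of these were DEGs (12.7% and 3.29% of all genes). In Pramel3, 1 of the 9, every NT library lay below every Am library, with a log2 change of -1.06 (adjusted p = 0.0639), and it passed as lower with median-of-ratios scaling. The 4 DEGs became 1 without NT1 or NT2, 5 without NT3 and 2 without any one Am library. Pramel7 measured 317, 244 and 112 FPKM against 14.1, 33.7 and 15.1 FPKM (log2 change 3.34, SE 0.45, adjusted p = 0.00625). Pramel4 measured 210, 145 and 21.9 FPKM against 10.4, 13.1 and 5.89 FPKM, and Gm13102 232, 135 and 24.6 FPKM against 9.64, 13.4 and 5.41 FPKM. Pramel5 measured 34.1, 26.6 and 9.87 FPKM against 4.43, 6.29 and 3.11 FPKM. In each of them NT3 was the lowest NT library, and it still lay above every Am library. Gm4567 (31.1, 23.5 and 13.1 FPKM against 1.43, 1.60 and 2.96 FPKM, log2 change 2.93, SE 0.38, adjusted p = 0.0058) and its near-copy Gm10668 (log2 change 2.89) were called with each library left out. Pramel4 (adjusted p up to 0.0998), Pramel5 (up to 0.0875) and Gm13102 (up to 0.0861) were called without NT3 but not without any other single library.

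Genes that build ribosomes lay above the median of all genes, with smaller changes than the burst genes. Of 76 ribosome biogenesis genes, 75 were tested, 17 were higher and 0 lower at the adjusted p (12.7% and 4.18% of all genes) and 4 of the 17 were DEGs. The 17 were 12 with median-of-ratios and 44 with spike-in scaling. The median log2 change was 0.72. Rpp38, a protein subunit of RNase P and RNase MRP, measured 73.9, 56.6 and 46.6 FPKM against 5.09, 9.05 and 5.19 FPKM (log2 change 3.03, SE 0.30, adjusted p = 0.00341). Pop7, another subunit of the same enzymes, measured 36.5, 39.9 and 24.3 FPKM against 4.17, 2.58 and 8.13 FPKM (log2 change 2.61, SE 0.38, adjusted p = 0.00732). The small subunit factor Utp4 and the large subunit factor Rrs1 were the other DEGs, with log2 changes of 2.496 (adjusted p = 0.0227) and 2.37 (adjusted p = 0.0111). Npm1, the abundant nucleolar phosphoprotein, measured 879, 942 and 812 FPKM against 309, 374 and 260 FPKM, a narrow spread in both groups (log2 change 1.49, SE 0.19, adjusted p = 0.00572). The 17 became 38 without NT3, 7 without NT1 or Am3, 8 without NT2, 9 without Am1 and 10 without Am2. Utp4 was lost without NT1, NT2, Am1 or Am3 (adjusted p up to 0.0756).

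All 81 cytosolic ribosomal protein genes were tested, 48 were higher, 0 were lower and 0 were higher DEGs (12.7%, 4.18% and 3.29% of all genes), and the median change was 0.72 on the log2 scale. Non-overlapping groups with NT on top were seen in 67 of them (26.8% of all genes). Rpl41, the most abundant of the named members, measured 5625, 8272 and 5991 FPKM against 3956, 3369 and 3854 FPKM (log2 change 0.81, SE 0.19, adjusted p = 0.0290). Rpl5, which carries 5S RNA into the large subunit, measured 122, 88.0 and 77.6 FPKM against 32.7, 30.6 and 29.3 FPKM (log2 change 1.58, SE 0.23, adjusted p = 0.00683). The count was 12 with median-of-ratios scaling and 75 with spike-in scaling. It was 24 without NT1, 18 without NT2, 53 without NT3, and 10, 13 and 12 without Am1, Am2 and Am3. Rpl41 was lost without NT2, Am1, Am2 or Am3 (adjusted p up to 0.0996), whereas Rpl5 was not lost.

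Among 47 translation factors, 15 were higher and 0 lower (12.7% and 4.18% of all genes), with a median log2 change of 0.73 and Eif1a, described above, as the DEG. The higher count was 7 with median-of-ratios and 29 with spike-in scaling. Eif4e, the cap-binding protein, measured 490, 710 and 301 FPKM against 152, 222 and 142 FPKM (log2 change 1.48, SE 0.33, adjusted p = 0.0244). Eef1a1, the main elongation factor and a very abundant transcript in most cells, measured 258, 232 and 298 FPKM against 243, 261 and 295 FPKM and did not pass (adjusted p = 0.942). The count of 15 was 27 without NT3, 5 without NT1, 6 without NT2 and 3, 6 and 5 without Am1, Am2 and Am3, and Eif4e was lost without NT1, NT2, Am1 or Am3 (adjusted p up to 0.0824).

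Genes of the spliceosome and its regulators included larger single rises. Of 68 listed, 67 were tested, 17 were higher (3 of them DEGs) and 0 lower, against 12.7% and 4.18% of all genes, and the median change was 0.51 on the log2 scale. The count of 17 was 12 with median-of-ratios and 38 with spike-in scaling. Srsf3, a serine- and arginine-rich splicing factor that also exports mRNA, measured 121, 92.5 and 59.1 FPKM against 7.84, 7.06 and 10.5 FPKM (log2 change 3.24, SE 0.31, adjusted p = 0.00301). Hnrnpa1, an hnRNP protein that opposes such factors at many exons, measured 281, 266 and 143 FPKM against 32.5, 53.7 and 31.6 FPKM (log2 change 2.501, SE 0.33, adjusted p = 0.0058). Cdc5l, a core protein of the Prp19 complex, measured 32.2, 17.1 and 20.8 FPKM against 3.13, 3.53 and 5.48 FPKM (log2 change 2.25, SE 0.32, adjusted p = 0.00683). Magoh, part of the exon junction complex, reached 789, 1189 and 673 FPKM against 235, 206 and 207 FPKM (log2 change 1.99, SE 0.23, adjusted p = 0.00508). These 4 genes showed no overlap and were called with each library left out, while the count of 17 was 22 without NT3, 8 without NT1, 9 without NT2, and 7, 7 and 5 without Am1, Am2 and Am3.

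Among 57 genes of RNA polymerase II and its general factors, the target machinery of the toxin, 55 were tested, 6 were higher and 1 lower, which is no more than the 12.7% and 4.18% of all genes, and the median log2 change was 0.47. The 6 were 2 with median-of-ratios and 26 with spike-in scaling. Taf3, a TFIID subunit that reads H3K4 trimethylation, was the one that fell, with 5.84, 6.00 and 6.21 FPKM against 18.1, 14.3 and 20.1 FPKM (log2 change -1.39, SE 0.24, adjusted p = 0.0124). Cdk9, the kinase of the elongation factor P-TEFb, measured 18.3, 13.0 and 5.74 FPKM against 3.49, 2.74 and 2.27 FPKM (log2 change 1.68, adjusted p = 0.0320). The count of 6 was 15 without NT3, 1 without NT1 or Am3, 2 without NT2 or Am2 and 0 without Am1. Taf3 was lost without Am1 or Am3 (adjusted p up to 0.0550), and Cdk9 without any library but NT3 (up to 0.0998).

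Small nucleolar RNAs guide the chemical modification of ribosomal RNA and are cut from introns of host transcripts. Of 39 tested Snord genes, 12 were higher (10 of them DEGs) and 1 was a lower DEG, and of 29 tested Snora genes 10 were higher (2 of them DEGs), where 12.7% of all genes were higher and 3.29% higher DEGs. The medians of the tested genes were 1.26 and 1.37. Many Snord genes reached 1 FPKM in few libraries other than NT. Of the 6 with 1 FPKM in all 6 libraries, 0 were higher, with a median of 0.25, and of 12 such Snora genes 7 were higher, with a median of 1.44. Snord78, which lies within Gas5 (chr1:161036984-161037049), measured 64.0, 21.6 and 35.0 FPKM in the NT libraries and had no read in the Am libraries, at least 5.43-fold higher with those set to 3 reads each. Snord118, the U8 snoRNA, went the other way with 8.53, 1.41 and 5.86 FPKM against 58.9, 94.1 and 48.2 FPKM (log2 change -3.60, adjusted p = 0.00665). These values rest on few reads, 15 to 33 per NT library for Snord78. The libraries were primed on poly(A) and do not mark strand. The reads here, as at small nuclear RNA genes, may thus be of precursor or overlapping RNA and not of the mature form. The Snord count of 12 was 0 of 26 tested without NT1, 1 of 27 without NT2, 7 of 30 without NT3 and 6 without Am1, and the Snora count of 10 was 7, 4, 5 and 6 without NT1, NT2, Am1 and Am2. With spike-in scaling 18 Snord and 18 Snora genes were higher. Of 18 tested snoRNA host RNAs, 3 were higher (7 with spike-in scaling, 1 or 2 without any single library) and 0 lower, with a median of 0.32.

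**Figure D4:**
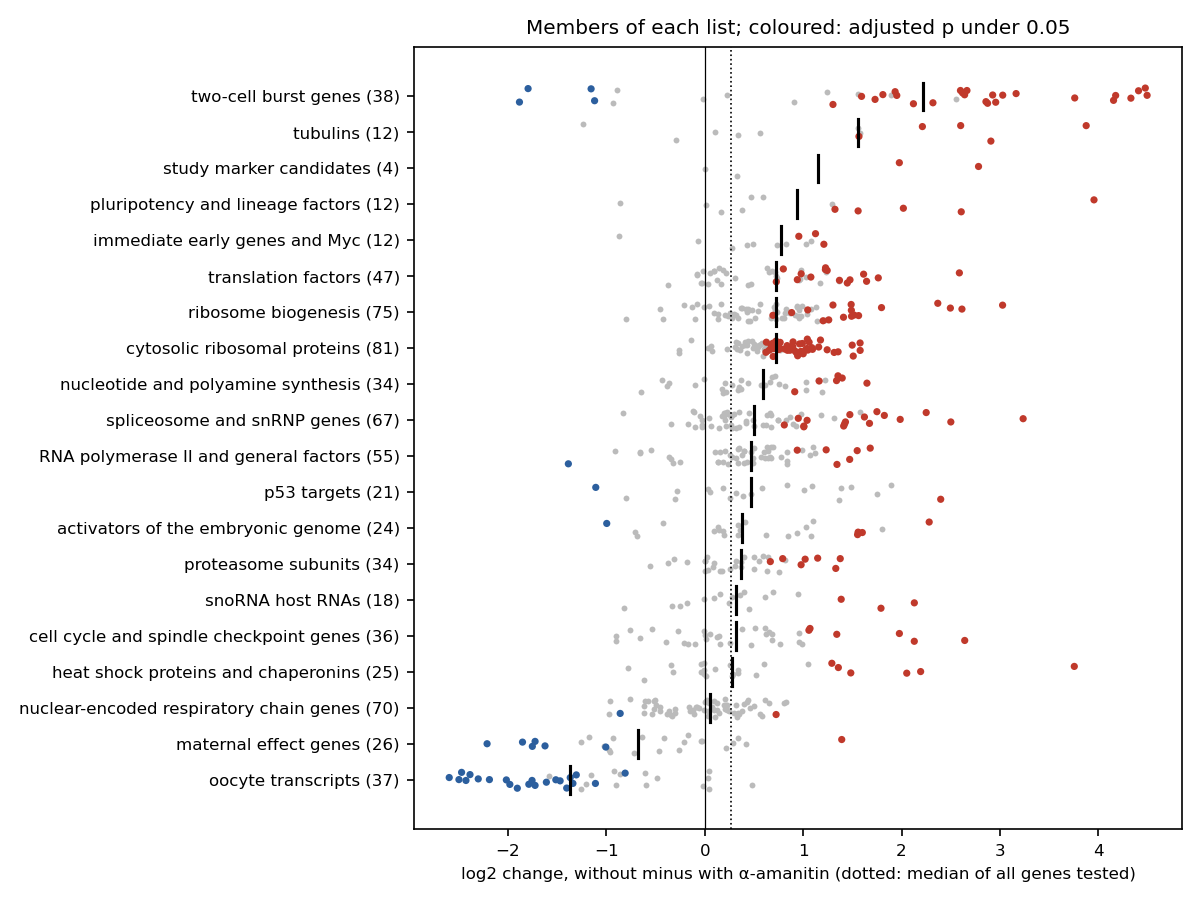
Log2 change of every tested member of each gene list (horizontal axis, without minus with α-amanitin), with members at an adjusted p under 0.05 coloured, a black bar at each list's median and the median of all genes dotted at 0.26. Two-cell burst genes (median 2.22) and tubulins (1.56) lie farthest to the right, and oocyte transcripts (-1.37) and maternal effect genes (-0.68) lie to the left.

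Heat shock protein and chaperonin genes as a list lay at the level of all genes, with 25 tested, 6 higher, 0 lower (12.7% and 4.18% of all genes) and a median of 0.27 that became -0.04 with median-of-ratios scaling. The 3 DEGs were all Hsp70 genes, of which Hspa1b and Hspa2 passed the filter only through the NT libraries and could not be tested without one of them. Hspa8, the constitutive Hsc70, measured 209, 148 and 90.4 FPKM against 8.97, 7.84 and 12.2 FPKM (log2 change 3.76, SE 0.33, adjusted p = 0.00301). The heat-inducible Hspa1b measured 2.44, 3.62 and 4.27 FPKM and at most 3 reads in an Am library, at least 19.7-fold higher with those set to 3 reads each. Hspa2 measured 3.39, 9.18 and 3.29 FPKM against 0, 0.324 and 0.511 FPKM (adjusted p = 0.0140). Hspa8 was called with each library left out, whereas Hspa2 was lost without Am1 (adjusted p = 0.0544). The endoplasmic reticulum member Hspa5 overlapped, with 109, 102 and 118 FPKM against 118, 78.0 and 139 FPKM (adjusted p = 0.973). The count of 6 was 9 with spike-in scaling, 1 without NT1 or NT2, 2 without Am1 and 3 without Am3.

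Tubulins are the proteins that demecolcine binds, and both groups received it. Of 12 tubulin genes tested, 4 were higher DEGs and 5 passed the adjusted p upwards (3.29% and 12.7% of all genes), with 0 passing when no filter on low FPKM was used, and the median log2 change was 1.56. Tuba1b measured 24.9, 10.7 and 42.6 FPKM against 2.69, 2.73 and 3.30 FPKM (log2 change 2.60, SE 0.46, adjusted p = 0.0124), and Tubb5 measured 21.8, 10.8 and 30.3 FPKM against 3.44, 2.64 and 4.22 FPKM. Tuba1a measured 47.2, 14.2 and 120 FPKM against 1.05, 0.561 and 7.71 FPKM (log2 change 3.88, SE 0.85, adjusted p = 0.0233). NT3 was the highest and NT2 the lowest NT library for each of these 3 genes, whereas NT3 had the lowest summed level of the burst genes. Tuba1b and Tubb5 were called with each library left out, and Tuba1a was lost without NT1, Am1 or Am2 (adjusted p up to 0.0769). The DEG count of 4 was 3 without NT3 and 2 without NT1, Am1 or Am2. Summed myoblast markers were also highest in NT3 and lowest in NT2 (5972 and 1537 FPKM), and their part in the tubulin values was not tested.

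Of 36 tested cell cycle and spindle checkpoint genes, 6 were higher and 0 lower, against 12.7% and 4.18% of all genes, with a median of 0.32. The 6 were 4 with median-of-ratios and 14 with spike-in scaling. Plk1, a kinase of mitotic entry, measured 9.62, 9.96 and 11.98 FPKM against 0.386, 0.780 and 1.52 FPKM (log2 change 2.64, SE 0.32, adjusted p = 0.00546). Aurka, the spindle kinase, measured 66.5, 45.6 and 25.2 FPKM against 11.7, 7.71 and 7.88 FPKM (log2 change 2.13, adjusted p = 0.0120). Both were called with each library left out. Cdc20, the mitotic activator that the checkpoint holds back, measured 149, 146 and 55.0 FPKM against 39.4, 14.7 and 30.8 FPKM, with an adjusted p of 0.0304 that was lost without any library but NT3 (up to 0.0948). Pttg1, the gene of securin, did not pass (adjusted p = 0.997). The count of 6 was 3 without NT1, Am1, Am2 or Am3.

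Among 21 tested p53 targets, 1 was higher and 1 lower (12.7% and 4.18% of all genes), and the median was 0.47. With spike-in scaling 6 were higher and 0 lower. Ddit4, a stress-induced inhibitor of mTORC1, measured 11.9, 8.57 and 5.03 FPKM against 0.967, 1.13 and 0.217 FPKM (log2 change 2.40, adjusted p = 0.0102) and was called with each library left out. Cdkn1a, which encodes the cell cycle inhibitor p21, measured 142, 21.2 and 25.5 FPKM against 15.3, 9.94 and 11.4 FPKM, and its high value in NT1 came with an adjusted p of 0.101. Mdm2 (adjusted p = 0.487) also did not pass. Pmaip1, which encodes the proapoptotic Noxa, fell with 0.656, 0.627 and 1.11 FPKM against 2.95, 3.45 and 2.23 FPKM (log2 change -1.11, adjusted p = 0.0376), a call lost without any library but NT3 (up to 0.118). Of 12 tested immediate early genes, 3 were higher (6 with spike-in scaling), with Jun at 1.26, 1.10 and 2.01 FPKM against 0.266, 0.0336 and 0.0530 FPKM (adjusted p = 0.0309), and the count was 0 when any single library was left out, although Jun itself could not be tested without an NT library. The p53 count of 1 higher gene was 2 without NT2 and 3 without NT3.

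Of 34 proteasome subunits, the parts of the main protease of the cytosol and nucleus, 7 were higher and 0 lower (12.7% and 4.18% of all genes), with a median of 0.37. Psma5, a subunit of the 20S core, had a log2 change of 1.38 (adjusted p = 0.0124). Of 34 tested nucleotide and polyamine synthesis genes, 6 were higher and 0 lower, with a median of 0.59, among them Rrm2, a subunit of ribonucleotide reductase (log2 change 1.65, adjusted p = 0.00859). Of 70 nuclear-encoded respiratory chain genes, 1 was higher and 1 lower, below the share of all genes in both directions, with a median of 0.06. With median-of-ratios scaling 0 of them were higher and 6 lower, and with spike-in scaling 18 were higher and 0 lower. The higher counts under the same scalings were 1 and 16 for the proteasome and 3 and 15 for nucleotide synthesis. Cox6a1 was the one that fell, at 296, 289 and 342 FPKM against 544, 557 and 579 FPKM (log2 change -0.86, adjusted p = 0.0141). Without NT3 these counts were 9 for the proteasome and 14 for nucleotide synthesis, and 10 respiratory chain genes were lower. Without 1 of the other libraries they were 1 or 2 for the proteasome, 1 to 3 for nucleotide synthesis and 0 to 2 for lower respiratory chain genes, and Cox6a1 was lost without Am1, Am2 or Am3 (adjusted p up to 0.0618).

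Many transcripts that are stored in the oocyte fell without α-amanitin. Of 48 listed, 37 were tested, 0 were higher and 22 lower (4.18% of all genes were lower), 8 of them DEGs (0.49% of all genes), with a median log2 change of -1.37. In 26 of the 37 every NT library lay below every Am library, against 11.2% of all genes. The median was -1.64 with median-of-ratios scaling and -0.61 with spike-in scaling, where 9 genes passed. The count of 22 was 20 without NT3, 13 without NT1, 15 without NT2, and 11, 15 and 12 without Am1, Am2 and Am3.

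The genes of oocyte secreted proteins and of the Tcl1b group led this list. Oosp1 measured 49.1, 35.3 and 36.9 FPKM against 305, 151 and 176 FPKM (log2 change -2.30, SE 0.29, adjusted p = 0.0058). Oosp3 measured 10.5, 13.5 and 12.3 FPKM against 77.0, 78.1 and 50.4 FPKM (log2 change -2.38, SE 0.25, adjusted p = 0.00376). The NT libraries of both lay within a narrow band far below the Am libraries. With spike-in scaling 2 Oosp genes passed the adjusted p and 0 were DEGs. All 5 Tcl1b genes, relatives of the T-cell leukemia gene Tcl1 that lie together on chromosome 12, were lower DEGs (0.49% of all genes) with log2 changes of -2.60 to -2.19. Tcl1b4 measured 2.09, 0.771 and 0.829 FPKM against 12.7, 9.86 and 13.9 FPKM. With spike-in scaling the Tcl1b median was -1.69, so that all 5 passed the adjusted p and 0 were DEGs. Zp3, the sperm-binding glycoprotein of the egg coat, measured 20.02, 15.7 and 14.1 FPKM against 63.6, 52.1 and 42.7 FPKM (log2 change -1.61, SE 0.25, adjusted p = 0.00842). Btg4, an adaptor that links the CCR4-NOT deadenylase to maternal mRNA, measured 19.5, 14.2 and 23.9 FPKM against 42.0, 56.4 and 46.3 FPKM (log2 change -1.30, adjusted p = 0.0170), a call lost without NT1, Am1, Am2 or Am3 (up to 0.0613). The oocyte-expressed Fbxw12 to Fbxw28 genes, F-box and WD repeat genes that were grouped after the values were seen, were lower in 14 of 15 tested members, with a median of -1.73, against 4.18% of all genes. The 14 were 6 without NT1, 8 without NT2, 3 without Am1 or Am3, 3 with spike-in scaling (median -0.93) and 3 with no filter on low FPKM.

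Maternal effect genes, whose proteins the embryo needs from the oocyte, were mixed. Of 26 tested, 1 was higher and 6 lower (12.7% and 4.18% of all genes), and the 6 were 10 with median-of-ratios and 1 with spike-in scaling. The median of -0.68 became 0.01 with spike-in scaling. Nlrp14 measured 11.9, 22.8 and 23.1 FPKM against 107, 69.1 and 96.5 FPKM (log2 change -2.21, SE 0.31, adjusted p = 0.00659). Nlrp5, also known as Mater, a part of the subcortical maternal complex, measured 2.24, 3.79 and 3.85 FPKM against 14.9, 12.3 and 12.6 FPKM (log2 change -1.75, adjusted p = 0.00995). Both were called with each library left out and did not overlap. Dppa3, also known as Stella, was the most abundant maternal effect transcript, at 8379, 12248 and 8500 FPKM against 7576, 7222 and 6623 FPKM, and did not pass (log2 change 0.42, adjusted p = 0.167). The count of 6 was 3 without NT1 or Am1 and 8 without NT3.

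The largest falls among the named genes lay outside the oocyte list. Rny1, the Y1 RNA of Ro particles and a product of RNA polymerase III, measured 5.71, 2.13 and 2.35 FPKM against 80.2, 77.5 and 125 FPKM (log2 change -4.49, SE 0.36, adjusted p = 0.00284), from 2 to 5 reads per NT library. In libraries primed on poly(A), its reads may not be of the mature RNA. The 4 Prl2c genes, which encode proliferins, growth factors of the prolactin family, were all lower DEGs (0.49% of all genes). Their summed level was 210, 955 and 843 FPKM against 4372, 8298 and 5521 FPKM. Prl2c2 alone measured 129, 575 and 545 FPKM against 2712, 5079 and 3400 FPKM (log2 change -3.39, SE 0.55, adjusted p = 0.0102). Its lowest Am library was several times its highest NT library, and the 4 genes stayed DEGs without any one library and under both other scalings, but 0 of 4 passed the adjusted p when no filter on low FPKM was used. The family medians were -3.55 and -2.44 under median-of-ratios and spike-in scaling. Cck, the gene of the peptide hormone cholecystokinin, measured 10.1, 47.9 and 4.85 FPKM against 161, 352 and 123 FPKM (log2 change -3.71, adjusted p = 0.0174), a call lost without NT1, Am1 or Am2 (up to 0.0604). Mfap2, a microfibril protein, had at most 2 reads in an NT library and 6.48, 6.46 and 10.5 FPKM in the Am libraries (log2 change -2.98, adjusted p = 0.00368), but passed the filter only through the Am libraries and could not be tested without one of them.

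Markers of the donor cells were present in both groups, and members changed in both directions. Of 32 myoblast and mesenchymal genes, 30 were in the table and 16 were tested, 3 were higher and 2 lower (12.7% and 4.18% of all genes; 6 and 0 with spike-in scaling), and the summed FPKM was 2142, 1537 and 5972 in NT1 to NT3 and 4485, 4856 and 4308 in Am1 to Am3. NT3 thus held the highest and NT2 the lowest sum, and the groups overlapped. The list's median log2 change of 0.74, against 0.26 for all genes, was 0.00 without NT3. The muscle-determining genes were near or at 0, with Myog, Myf6 and Pax7 at 0 in all 6 libraries, Myod1 at 0.275 FPKM in NT1 and 0 elsewhere, and Myf5 at 0.983 FPKM in NT1, 4.43 FPKM in NT3 and 0 elsewhere. Among the higher markers were 2 matrix genes, with Fn1 (fibronectin) at 32.003, 19.8 and 49.5 FPKM against 2.22, 1.88 and 2.99 FPKM (log2 change 3.29, SE 0.36, adjusted p = 0.00428) and Col3a1 (collagen III) at 17.5, 12.4 and 45.3 FPKM against 1.56, 0.830 and 1.70 FPKM (log2 change 3.27, SE 0.47, adjusted p = 0.0068). Both were called with each library left out. S100a4, a calcium-binding protein of motile cells, fell with 368, 460 and 1223 FPKM against 1734, 2177 and 1779 FPKM (log2 change -1.67, SE 0.41, adjusted p = 0.0320), and Anxa2 with 43.9, 16.6 and 62.9 FPKM against 108, 132 and 102 FPKM (adjusted p = 0.0411). The most abundant marker, Lgals1, overlapped at 1273, 756 and 3590 FPKM against 2126, 1989 and 1921 FPKM (adjusted p = 0.590). The count of 2 lower markers was 5 without NT3, 1 without NT2 and 0 without NT1 or any one Am library. S100a4 was lost without any library but NT3 (adjusted p up to 0.0972) and Anxa2 without NT1 or any Am library (up to 0.110).

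The marker candidates that the study took from four-cell embryos were chosen on other samples of this series, so their direction there is not independent. The list holds these 6 genes and, added to them here, Kctd9 and Nck2, whose promoters the study examined. Of the 8 genes, 4 were tested at the two-cell stage and 2, both candidates of the study, were higher (12.7% of all genes). Plk2, a stress-responsive Polo-like kinase, measured 18.9, 2.42 and 12.8 FPKM against 1.51, 0.143 and 0 FPKM (log2 change 2.78, SE 0.67, adjusted p = 0.0310). Kti12, an Elongator-associated factor of tRNA modification, measured 68.7, 54.1 and 21.6 FPKM against 11.1, 10.1 and 9.60 FPKM (log2 change 1.98, adjusted p = 0.0190). Lzic overlapped, at 22.0, 18.1 and 9.33 FPKM against 16.3, 14.7 and 7.43 FPKM (adjusted p = 0.597). Rnd3 (1.18, 0.258 and 2.80 FPKM against 0, 0.0242 and 0.458 FPKM), Tmem144 (0.881, 0.382 and 1.44 FPKM against 0) and Aqp3 (1.05 FPKM in NT1, 0.370 FPKM in Am3 and 0 elsewhere) were too low to be tested. The call of Plk2 was lost without NT1, NT3 or any Am library (adjusted p up to 0.0950) and that of Kti12 without any library but NT3 (up to 0.0653).

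Promoters were read for the higher DEGs that matched RefSeq by name, 221 of 470 genes with 253 windows of 250 bases before the start. They were poorer in CpG than those of all genes tested, with a median of 8 CpG and 53.6% GC against 15 CpG and 58.8% GC in 9765 windows, and close to all 32851 promoters in the table (6 CpG and 52.4%). The GC box GGGCGG stood in 39.1% of the DEG windows and in 53.9% of those of all genes tested. The Nr5a2-type element TCAAGGNCA stood in 3.56% against 1.00% of windows of all genes tested, and the Obox or Otx-type element TAATCCC in 5.93% against 2.07%. Windows that held both were 7 of 253 (2.77%) among the higher DEGs and 16 of 9765 (0.164%) among all genes tested, and the 4 printed promoters are among the 7. The others are those of Gm10668, Gm5891 and Gpr161. The 7 windows are not 7 separate cases. The Gm4567 and Gm10668 stretches are identical, and Gm5891 has the elements in their order and spacing, at 110 and 146 bases before the start. Gpr161 has them 83 and 71 bases before the start, in the order and spacing of the Pramel promoters. Whether these windows are copies of the same sequence was not tested. Each motif was searched on both strands, and a match describes letters only.

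The same contrast in four-cell embryos with C2C12 cells was fitted apart, on a table that was normalised separately, so its log2 changes are placed side by side and no test was run across the tables. All four-cell values were whole reads, whereas the two-cell values share reads between genes in fractions. Genes with near-identical copies were thus not counted alike in the 2 tables. There 9884 genes were tested in pools of 3 embryos, 613 were higher DEGs (6.2%) and 36 lower (0.364%), and at the adjusted p 11.1% of genes were higher and 1.13% lower. Of 8858 genes tested at both stages, 273 were higher DEGs at the two-cell and 534 at the four-cell stage, and 115 were shared, 42.1% and 21.5% of each. Of the lower DEGs, 27 and 27, 1 was shared. Among the 273, 253 were above 0 at the four-cell stage, with a median log2 change of 1.93 there, against 5818 of the 8858 genes and a median of 0.34. A gene that passed the four-cell filter only through the libraries without the toxin could only lie above 0 there. How many of the 253 did so was not counted. Mad2l1bp had a log2 change of 4.65 at the two-cell and 4.93 at the four-cell stage, Gm8300 4.49 and 4.96, Klf2 3.96 and 5.01, Rpp38 3.03 and 5.69 and Pramel7 3.34 and 3.10. These values are large at both stages. Gm8300 and Klf2, however, passed the four-cell filter only through the libraries without the toxin, with means of 0 and 0.291 FPKM with it.

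Other genes had a large change in the two-cell table and a small value in the four-cell table. Srsf3 had a log2 change of 3.24 at the two-cell and -0.29 at the four-cell stage, Hnrnpa1 2.501 and -0.02, Magoh 1.99 and -0.18, Npm1 1.49 and -0.02 and Hspa8 3.76 and 1.03. Over the cytosolic ribosomal protein genes the median was 0.72 at the two-cell stage, where 48 of 81 passed upwards, and -0.40 at the four-cell stage, where 0 of 81 passed in either direction. For oocyte transcripts it was -1.37, with 22 of 37 lower, and -0.38, with 1 of 27 lower. The p53 targets lay the other way round, with a median of 0.47 and 1 of 21 higher at the two-cell stage and 2.03 and 8 of 19 higher at the four-cell stage, Cdkn1a among them (log2 change 1.75, adjusted p = 0.101, and 3.61, limma adjusted p = 0.00249). These differences between stages were not tested, nor was the part that the unlike counting of reads had in them.

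**Figure D5:**
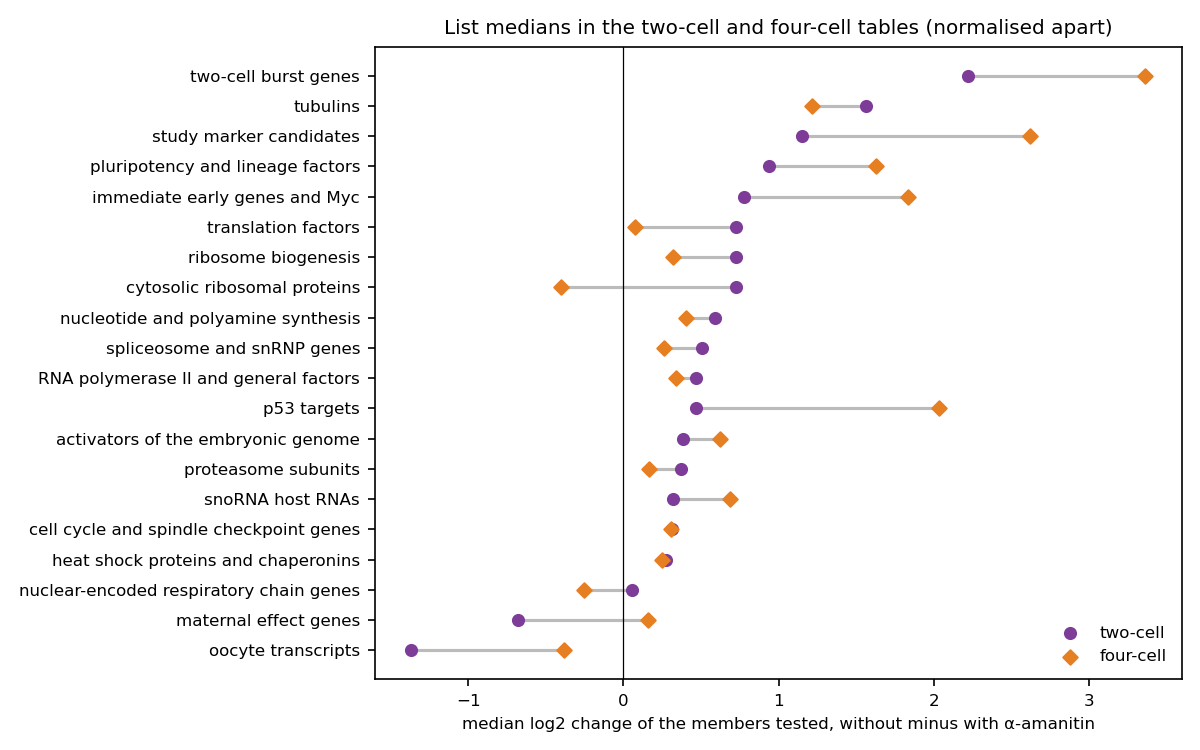
Median log2 change (without minus with α-amanitin, horizontal axis) of the tested members of each gene list in the two-cell table (circles) and the four-cell table (diamonds), which were normalised apart and did not count reads alike. Two-cell burst genes lie far to the right in both (2.22 over 38 genes and 3.36 over the 19 tested in both), ribosomal protein genes lie at 0.72 and -0.40, and p53 targets at 0.47 and 2.03. The other burst genes, Zscan4c, Zscan4d and Tdpoz5 among them, could not be tested at the four-cell stage.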

How the data were processed

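RNA-seq was made by SMART-seq v4 from poly(A) RNA of pooled NT embryos. After lysis, 1 μl was replaced by diluted ERCC spike-ins. Per the submitters' processing notes, reads were filtered with Trimmomatic, Trim Galore and cutadapt, mapped to mm10 with STAR and counted with featureCounts, with versions not given in the sources used here. The authors deposited FPKM for each library, without spike-in scaling, and FPKM times gene length summed to the same total in each library. SMART-seq does not mark strand, so overlapping genes cannot be told apart. These FPKM, after adding 1 and taking log2, entered limma 3.58.1 (R 4.3.3, mean-variance trend) for genes that reached 1 FPKM in 3 or more of the 6 libraries. DEGs had a Benjamini-Hochberg adjusted p under 0.05 and at least a 4-fold change. A further 6 columns of the table, with names that begin with R or RAm, were not used. The comparison was defined on the columns that begin with NT and Am, and the labels do not explain the R. The plan foresaw 12 libraries, and 6 were used. Only 40.2% to 43.3% of values were whole reads (within 0.005 read) after scaling back, and nearly all were whole hundredths of a read. The main fit therefore used no count model, and read numbers are approximate. A bound ("at least") sets each library of the low group to 3 reads. On simulated data of 14285 genes with 50 changed genes per size, 18 were recovered at a log2 change of 2, 47 at 3, 48 at 4 and 48 at 5, with 1 false call. The changed genes were drawn from those with a mean log2(FPKM + 1) above 3, so recovery at lower levels was not tested. A log2 change of 2 is the 4-fold limit itself, and estimates below it were not called.

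The members and lists were chosen with earlier results of these data known. Named genes are the 10 DEGs with the largest rise and fall whose libraries do not overlap (without clone names and pseudogenes unless listed), the 4 highest and the most changed members of each list, the study's marker candidates and the 5 genes with the highest FPKM. Further members named as examples, and the gene families, were chosen after their values were seen. Alternatives were another pseudocount, other filters, 2 scalings, no trend, limma-voom on approximate reads (chosen after seeing the data), no fold limit, a block on the number and leaving out each library. Promoters were read from RefSeq (GRCm38.p6) by gene name, without chromosome 18, and 12 motifs were searched on both strands.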

Additional observations from a re-analysis of the deposited data

Results flagged for a closer look

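Genes whose libraries did not overlap at either stage but lay in opposite directions at the two-cell and four-cell stages are given here, as log2 changes without minus with α-amanitin. The difference between the stages was not tested in any of them, and the 2 tables were normalised apart and did not count reads alike. Among named list members, Obox8 had 1.55 (limma adjusted p = 0.0130) at the two-cell and -1.57 (adjusted p = 0.0676) at the four-cell stage, where it measured 93.1 to 422 FPKM without and 511 to 841 FPKM with the toxin. Pmaip1 had -1.11 (limma adjusted p = 0.0376) and 2.21 (adjusted p = 0.0642), with 1.03 to 14.2 FPKM without and 0 to 0.332 FPKM with the toxin at the four-cell stage. Rpl41 had 0.81 and -0.31 (limma adjusted p = 0.0290 and 0.206), and Dppa3 had 0.42 and -0.54 (adjusted p = 0.167 and 0.0606), so none of these 4 passed at the four-cell stage. In 2 further genes, chosen after their values were seen, both stages passed the test in opposite directions. Gm4468 measured 16.5, 19.3 and 17.7 FPKM against 1.75, 4.28 and 5.61 FPKM at the two-cell stage (2.04, adjusted p = 0.0124) and 0 to 1.86 FPKM against 7.68 to 11.97 FPKM at the four-cell stage (-2.41, adjusted p = 0.0208). Gm4984 measured 3.38, 0 and 0 FPKM against 26.5, 6.25 and 8.92 FPKM (-2.94, adjusted p = 0.0296, lost without NT2, NT3, Am1 or Am3 with values up to 0.0921) and 1.28 to 7.59 FPKM against 0 to 0.896 FPKM (2.14, adjusted p = 0.0477).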

How the results depend on the processing

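The 470 higher and 70 lower DEGs kept their sign in each alternative that could test them. Without an NT library 353 of the 470 could be tested, without an Am library 60 of the 70, and with 1 FPKM in all 6 libraries 225 and 36, while the other alternatives tested all of them. Their numbers moved. They were 715 and 152 with a pseudocount of 0.1, 183 and 30 with no filter on low FPKM, 229 and 36 with at least 1 FPKM in all 6 libraries, 335 and 122 with median-of-ratios scaling, 1385 and 25 with spike-in scaling, 557 and 167 with limma-voom on approximate reads, and 1814 and 597 with no fold limit. Leaving out 1 library gave 198 to 555 and 45 to 103. With the number in the library names as a replicate block there were 458 and 69, of which 447 and 68 were shared with the fit without it. Same-numbered libraries deviated together with correlations of only 0.02, 0.07 and 0.06, and NT1 correlated best with Am3, so the numbers were not read as pairs. Of 99 named genes, 88 had passed the adjusted p, and 54 of these passed in every fit without 1 library that could test them. No filter ended the call of 45, limma-voom that of 18, spike-in scaling that of 11, and the replicate block that of 6.

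Signs turned in some values. The heat shock list's median of 0.27 became -0.036 and that of the respiratory chain, 0.06, became -0.25 with median-of-ratios scaling (the latter -0.14 to 0.23 without 1 library), the maternal effect list's -0.68 became 0.015 and the Obox genes' -0.43 became 0.29 with spike-in scaling, and the myoblast list's 0.74 became -0.36 with 1 FPKM in all 6 libraries. Among genes that did not pass, Hspa5 was -0.30 with median-of-ratios scaling, -0.013 with limma-voom and -0.22 to 0.19 without 1 library, and Pttg1 was -0.31, -0.035 and -0.10 to 0.18. With spike-in scaling Eef1a1 was 0.81 and Lgals1 0.42, and without 1 library they were -0.12 to 0.063 and -1.03 to 0.089. Mdm2 was -0.031 to 0.90 without 1 library. The cause of these turns was not tested.

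In 97 higher DEGs no Am library held more than 3 reads, so the size of their change is limited by depth. Apart from limma-voom on approximate reads, no count model was run, because whole reads could not be recovered. No batch term was used, because the names give 1 value per group. The library names do not tell early from late transfer, so the stage of each group is not known.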

Other observations

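The highest FPKM of the two-cell table belonged to Gm10925, a pseudogene on chromosome 1 that is a copy of mitochondrial DNA. It measured 60648, 68285 and 110590 FPKM in NT1 to NT3 and 137840, 140250 and 177920 FPKM in Am1 to Am3 (log2 change -0.97, limma adjusted p = 0.0372), a call lost without any library but NT3 (adjusted p up to 0.128). With 6 other such copies on chromosome 1 it took 8.26%, 10.1% and 16.0% of the counted reads without and 19.1%, 19.8% and 22.7% with α-amanitin, so the groups did not overlap. Of 15 mitochondrially encoded genes looked for, 0 were in the table, and in the four-cell table the same 7 copies took 0.00317% to 0.0159% of reads. All four-cell values were whole reads, against 40.2% to 43.3% of the two-cell values. Reads were thus not counted alike, and these shares cannot be compared between the stages.

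A few further genes also had libraries that did not overlap. Hand1, a bHLH factor of trophoblast and heart, measured 10.1, 7.63 and 2.18 FPKM and no more than 3 reads in an Am library, at least 27.2-fold higher without the toxin. It and Zfp296 passed the filter only through the NT libraries and could not be tested without one of them. Zfp296, a zinc finger gene of pluripotent cells, measured 35.4, 16.7 and 2.94 FPKM against 0.502, 0.684 and 0.927 FPKM (log2 change 3.01, adjusted p = 0.0301), and the call was lost without any one Am library (adjusted p up to 0.0887). Cd74, the invariant chain of antigen presentation, measured 1.52, 0.482 and 0.393 FPKM against 25.5, 7.89 and 10.02 FPKM (log2 change -2.99, adjusted p = 0.00911). Ptgs2, a prostaglandin synthase and the one tested cumulus cell marker that passed, measured 0.393, 2.56 and 0.720 FPKM against 6.86, 15.5 and 17.8 FPKM (log2 change -2.72, adjusted p = 0.0122). These genes were chosen after their values were seen.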
